A study of Rattus norvegicus with 24 samples.

Results

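Late and early mitral regurgitation (MR) were compared in rat myocardium: 5 libraries taken 40 weeks after surgery against 4 libraries taken 2 weeks after surgery, 9 of the 24 libraries of the series. The 2 groups were chosen by their labels alone, and the values came from joining the deposited table of each time on the gene symbol. All rats were Sprague-Dawley, an outbred strain, and all MR rats had a left thoracotomy in which a mitral leaflet was perforated. The sham operation left the leaflet whole. The 5 Sham libraries are all from 2 weeks after surgery, so in MR at 40 weeks duration of the leak, older age and any change in handling or library preparation cannot be told apart. MR libraries from 10 weeks (n = 5) and 20 weeks (n = 5) give levels between the end points and entered 1 alternative fit. The labels give no sex, age, heart chamber or batch, and do not say that each library is a separate animal, so p-values measure the spread between these libraries.

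A leaking mitral valve sends part of each beat back into the atrium, and the ventricle fills with the extra volume at the next beat. A heart under such a volume load enlarges, and its muscle cells adjust contractile proteins, calcium handling, ion channels and fuel use, while fibroblasts, vessels and immune cells of the wall also change over time. The slow myosin heavy chain and the natriuretic peptides are textbook markers of a stressed rat ventricle.

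Levels are normalised read counts, in replicate order within a group unless stated, and group means are given with their SD. Reads on listed genes came to 9.27 ± 1.16 M (SD, n = 4) in MR at 2 weeks, 9.71 ± 1.07 M (SD, n = 5) in MR at 40 weeks and 7.69 to 9.70 M in Sham. Fold changes are MR 40 weeks minus MR 2 weeks on the log2(value + 1) scale, on which changes of low genes come out too small, with the standard error of the limma fit and the Benjamini-Hochberg adjusted p over all genes. A gene "rose" or "fell" where that p was under 0.05. Of 10037 tested genes, 2151 rose (21.4%) and 1902 fell (18.9%), 40.4% in all. With a change of at least 2-fold as well, 9.52% passed: 655 rose (6.53%) and 301 fell (3%). All 40-week libraries lay above all 2-week libraries for 17.5% of the tested genes and below them for 14.5%. On the deposited scale, with no rescaling of libraries, 1512 rose and 2733 fell, so that 35.6% of calls were rises against 53.1% after rescaling. The median gene then stood at -0.15 against -0.02, and the fold changes given here are relative to that median.

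On a principal component analysis of the 9 MR and 5 Sham libraries, the first component held 57.7% of the variance. MR at 40 weeks scored -49.7 to -19.2 on it, with replicate 3 nearest to the other groups, MR at 2 weeks 6.57 to 50.8, and Sham 0.117 to 37.3. Replicate 1 of MR at 2 weeks stood apart, with a score of 50.8 on the first and 36.7 on the second component and the lowest mean correlation with its own group (0.935). Without it 2036 genes rose and 1716 fell, and with the 2-fold limit 487 rose and 188 fell, against 655 and 301 with it. These libraries, replicate 1 early and replicate 3 late, were at the ends of their groups for the largest rises described next: among 12 such genes, replicate 1 of MR at 2 weeks was the lowest of its group in 9 and replicate 3 of MR at 40 weeks the lowest of its group in 11. Fold changes and counts were recomputed without each library in turn.

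Among genes at or above the median level whose groups did not overlap, the 12 largest rises were Hcn4, Maoa, Ccnd2, Pkia, Nipsnap2, Cavin4, Kcnk3, Ogdh, Sntb1, Alpk3, Pcyox1 and Ddah1. Hcn4 (chr8:63599907-63637325, rn6, as deposited), the main pacemaker channel of the heart, was at 0.335, 1.40, 0.664 and 0.773 at 2 weeks and at 35.5, 7.82, 11.9, 37.9 and 77 at 40 weeks. It was low in all 4 early libraries and varied widely among the late ones, and the log2 fold change was 3.91 ± 0.51 (SE, adjusted p = 0.000675). Maoa, the mitochondrial monoamine oxidase that degrades noradrenaline and serotonin, stood at 14.3, 25.3, 13.8 and 37.2 early and at 541, 181, 101, 368 and 190 late, a log2 fold change of 3.43 ± 0.43 (adjusted p = 0.000593). Its lowest late library was above its highest early library. Alpk3, a kinase-like protein of the sarcomere whose loss causes cardiomyopathy, read 26.5, 44.5, 28.6 and 43.8 early and 295, 232, 131, 253 and 246 late (log2 fold change 2.65 ± 0.24, adjusted p = 0.000162). Cavin4, a muscle protein of caveolae, went from 6.55 ± 4.43 (SD, n = 4) to 51.4 ± 12.8 (SD, n = 5). Pkia, the inhibitor of protein kinase A, went from 14.7 ± 13 to 111 ± 37.5 with the same n. The other rises in this group had log2 fold changes between 2.44 (Ddah1, which breaks down the nitric oxide synthase inhibitor dimethylarginine) and 3.18 (Ccnd2).

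The 12 largest falls by the same rule were Tmsb10, Slfn13, Tuba1c, Adamts10, Rps28, Ngdn, S100a10, Ifi27, Eif3k, Hmgb2l1, Rpl35a and Myl6. Tmsb10, a small actin-binding peptide, was at 315, 150, 165 and 159 early and at 65.3, 37.9, 72.8, 40.4 and 43.5 late (log2 fold change -1.88 ± 0.25, adjusted p = 0.000675). Its early replicate 1 was far above the other 3, and without that library the log2 fold change was -1.64. Tuba1c, an alpha tubulin, was even within its groups, at 21.3 ± 1.36 (SD, n = 4) early and 5.89 ± 1.84 (SD, n = 5) late. S100a10, the partner of annexin A2, was at 79.1 ± 15.6 early and 28.7 ± 10.4 late, and Myl6, the non-muscle and smooth muscle myosin light chain, at 196 ± 53.4 and 73.6 ± 24.7. Tmsb10, Slfn13, Tuba1c, Rps28, Rpl35a and Hmgb2l1 have near-identical copies or pseudogenes in the genome, and how reads were divided among copies is not given in the sources used here. In the largest falls, early replicate 1 was the highest of its group in 8 of 12 genes and late replicate 3 the highest of its group in 8 of 12.

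**Figure D1:**
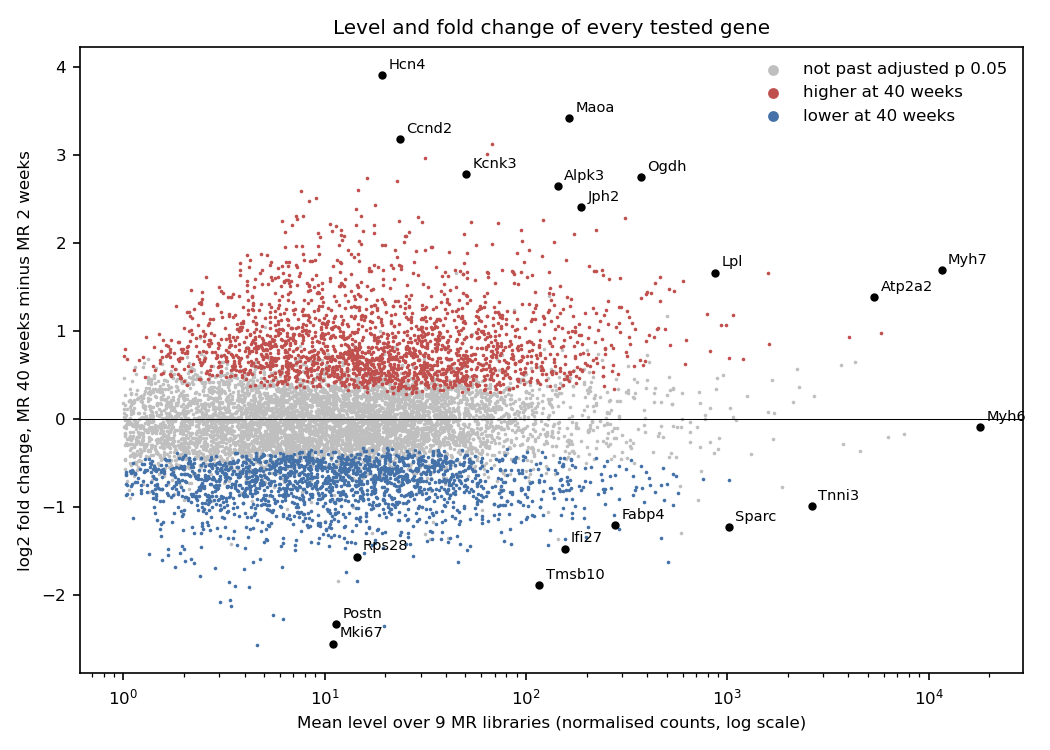
Each point is one of the 10037 tested genes, with its mean level over the 9 MR libraries (normalised counts, log scale) against its log2 fold change, MR 40 weeks minus MR 2 weeks; red and blue mark genes past an adjusted p of 0.05 and black points are named genes. Rises reach 3.91 (Hcn4), falls among the labelled genes reach -2.55 (Mki67), and Myh7 (1.70) rose at a very high level while Myh6 (-0.09) did not pass.

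Myosin and stress markers moved unequally. Myh7, the slow beta myosin heavy chain that the rat ventricle re-expresses under load, was at 3154, 6000, 4604 and 7560 at 2 weeks and at 17930, 21724, 14106, 13909 and 15639 at 40 weeks. Every late library was above every early one, and the log2 fold change was 1.70 ± 0.33 (adjusted p = 0.00272). Sham libraries ran from 4432 to 13893, and the MR means at 10 and 20 weeks were 11552 and 14057, so the early MR group had the lowest mean of the 5 groups. Myh6, the fast alpha myosin of the adult rat, was at 18286 ± 2465 (SD, n = 4) early and 17768 ± 4928 (SD, n = 5) late and did not pass (adjusted p = 0.862). Its late replicate 1 was at 9418 while the others were at 17818 to 21944. The myosins are close in sequence, and reads shared by both genes could not be told apart here.

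Natriuretic peptides overlapped between the groups. Nppa, which encodes atrial natriuretic peptide, was at 159, 82.2, 36.1 and 1145 early and at 1950, 222, 81.3, 236 and 604 late, with 1 high library in each group (adjusted p = 0.347). Its log2 fold change ran from 0.49 to 2.14 when a library was left out. Nppb, brain natriuretic peptide, was at 252 ± 99.1 (SD, n = 4) and 237 ± 74.4 (SD, n = 5) (adjusted p = 0.859). Skeletal actin Acta1 was at 466, 803, 430 and 1500 early and 685, 1484, 781, 455 and 742 late (adjusted p = 0.808). In the list of cardiac stress genes, 9 of 17 rose and 1 fell, with a median log2 fold change of 0.87. Xirp2 and Nrap, actin-binding proteins of the intercalated disc and of growing myofibrils, rose from 125 ± 57 to 365 ± 110 and from 284 ± 56.6 to 578 ± 88.7. Ankrd1, a titin-binding stretch-responsive protein, rose from 2738 ± 911 to 5072 ± 479 (log2 fold change 0.94 ± 0.25), and Gdf15, a secreted stress cytokine, from 1.54 ± 0.6 to 3.70 ± 1.45 (0.87 ± 0.22). Mustn1, a small nuclear protein of muscle and bone, was the fall in this list (-0.80 ± 0.27) and overlapped between groups. Its call was lost in 6 alternatives, with adjusted p up to 0.0961, and without early replicate 1 no gene of the list fell. It was named after its values were seen, as were the other genes here that stand outside the naming rule.

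Sarcomere genes did not move as 1 block. Of the thick filament list 3 of 12 rose (25%) and 1 fell (8.33%), and of the thin filament list 4 of 12 rose (33.3%) and 3 fell (25%). Of the Z-disc list 9 of 21 rose (42.9%) and 2 fell (9.52%). Of all tested genes 21.4% rose and 18.9% fell, and the filament shares, on 12 genes each, were not far from these. Without early replicate 1, 5 thin filament genes fell, and 0 to 3 Z-disc genes fell when a library was left out. Mylk3, the kinase of the cardiac regulatory light chain, was at 56.9, 131, 82.2 and 132 early and 317, 317, 240, 356 and 321 late (log2 fold change 1.69 ± 0.24). Flnc, the filamin of striated muscle, was at 150, 160, 161 and 194 early and 385, 403, 454, 413 and 363 late, tight in both groups (1.28 ± 0.14, adjusted p = 0.00038). Synpo2, an actin-bundling Z-disc protein, rose by 2.23 ± 0.29, the titin-binding M-band protein Myom2 by 1.67 ± 0.34, and the thin filament elongation factor Lmod2 by 1.28 ± 0.20. Tnni3, the adult cardiac troponin I, fell from 4245, 2553, 4885 and 2996 to 1618, 2109, 2303, 1604 and 1465 (-0.99 ± 0.26, adjusted p = 0.0104). Its mean was 3462.5 at 10 weeks and 3795 at 20 weeks, with Sham at 3495 to 5022. The lowest libraries of MR at 2, 10 and 20 weeks were at 2553, 2674.5 and 3327, above the highest 40-week library (2303). Tpm2 and Tpm3, tropomyosins of slow muscle and of other cells, fell by 1.29 ± 0.38 and 0.68 ± 0.17. Actc1, the cardiac actin, rose by 0.99 ± 0.36 (adjusted p = 0.0434), but without early replicate 1 the value was 0.59 with an adjusted p of 0.0606, and it passed in none of the fits without a late library. Desmin (Des, 0.69 ± 0.23) was at 0.45 without early replicate 1, and its call was lost in 7 alternatives, with adjusted p up to 0.0939.

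Excitation-contraction coupling relies on junctophilin holding the sarcoplasmic reticulum close to the T-tubule, on the ryanodine receptor that releases calcium, and on the pump that takes it back. Jph2, the junctophilin of the heart, was at 31.4, 82.4, 51.5 and 58.9 early and 253, 341, 190, 355 and 326 late (log2 fold change 2.41 ± 0.26, adjusted p = 0.00038). Ryr2, the release channel, was at 443, 452, 423 and 477 early and 925, 1039, 686, 1392 and 1280 late (1.20 ± 0.21). The early libraries hardly differed for Ryr2, and all late ones were above them. Atp2a2, the reuptake pump, went from 2882 ± 893 (SD, n = 4) to 7354 ± 1330 (SD, n = 5), a change of 1.39 ± 0.29. Slc8a1, the sodium-calcium exchanger of the surface membrane, rose by 1.24 ± 0.21. In the list of calcium genes 10 of 26 rose and 1 fell, and leaving out late replicate 4 or 5 left 6 rises. The median log2 fold change of this list was 0.21.

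Of 34 ion channel genes 20 rose (58.8%) and 3 fell, with a median log2 fold change of 0.72. Kcnk3, the TASK background potassium channel, was at 6.03, 16.2, 11.2 and 11.7 early and 79.1, 91, 49.5, 104 and 86.5 late (2.79 ± 0.26, adjusted p = 0.000179). Kcnj3, a subunit of the acetylcholine-gated potassium channel, rose from 1.82 ± 1.37 to 12.5 ± 3.89 (2.32 ± 0.30). Scn4b, a beta subunit of the sodium channel, rose from 50.2 ± 16.2 to 153 ± 25.9 (1.64 ± 0.23). The falls were Kcnd3, a pore subunit of the transient outward current (-1.15 ± 0.32, and -0.72 without early replicate 1), Gjc1, the connexin of slow-conducting cells (-0.91 ± 0.16), and Trpm4, a calcium-activated cation channel (-0.70 ± 0.20).

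Hcn4, Kcnk3, Kcnj3 and the transcription factor Tbx5 are known to be higher in the atrium or the conduction system than in the ventricle, and the labels do not name the chamber. Of 11 atrial markers tested, 5 rose and none fell, with a median log2 fold change of 0.78. Kcnj3 and Tbx5 were among the rises. The summed level of the list, which includes Nppa, was 773 to 2430 in MR at 2 weeks, 1771 to 4289 in MR at 40 weeks and 819 to 1749 in Sham. The atrial myosin light chains did not pass. Myl7 was at 0.527, 0.584, 2.50 and 0.611 early and at 1.86, 1.26, 0.901, 1.43 and 1.03 late (adjusted p = 0.455). Its early replicate 3 was high, and all late libraries were above the other early ones (0.527 to 0.611). The log2 fold change of Myl7 was 0.24, and 0.13 to 0.53 when a library was left out. Myl4 was at 2.68 ± 1.45 and 2.17 ± 1.40 (adjusted p = 0.592). Sln and Bmp10, which also define atrial muscle, are not listed in the joined tables. Both light chains had higher means in MR at 10 weeks, 6.34 for Myl7 and 6.69 for Myl4. The part of atrial tissue in the channel result was not tested beyond these levels.

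Adrenergic and cyclic AMP signalling genes rose in 15 of 30 cases and fell in 2, with a median of 0.57. Pde3a, the phosphodiesterase that breaks down cyclic AMP near the sarcoplasmic reticulum, was at 5.70, 10.4, 10.1 and 6.84 early and 38.5, 42.7, 19.8, 56 and 45.5 late (2.12 ± 0.27). Adcy5, a main cardiac adenylyl cyclase, went from 51, 78.1, 61.9 and 74.9 to 188, 182, 125, 224 and 192 (1.43 ± 0.18). Prkar2a, a regulatory subunit of protein kinase A, rose by 2.14 ± 0.29. Arrb2, a beta-arrestin that ends receptor signalling, fell (-0.64 ± 0.15).

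**Figure D2:**
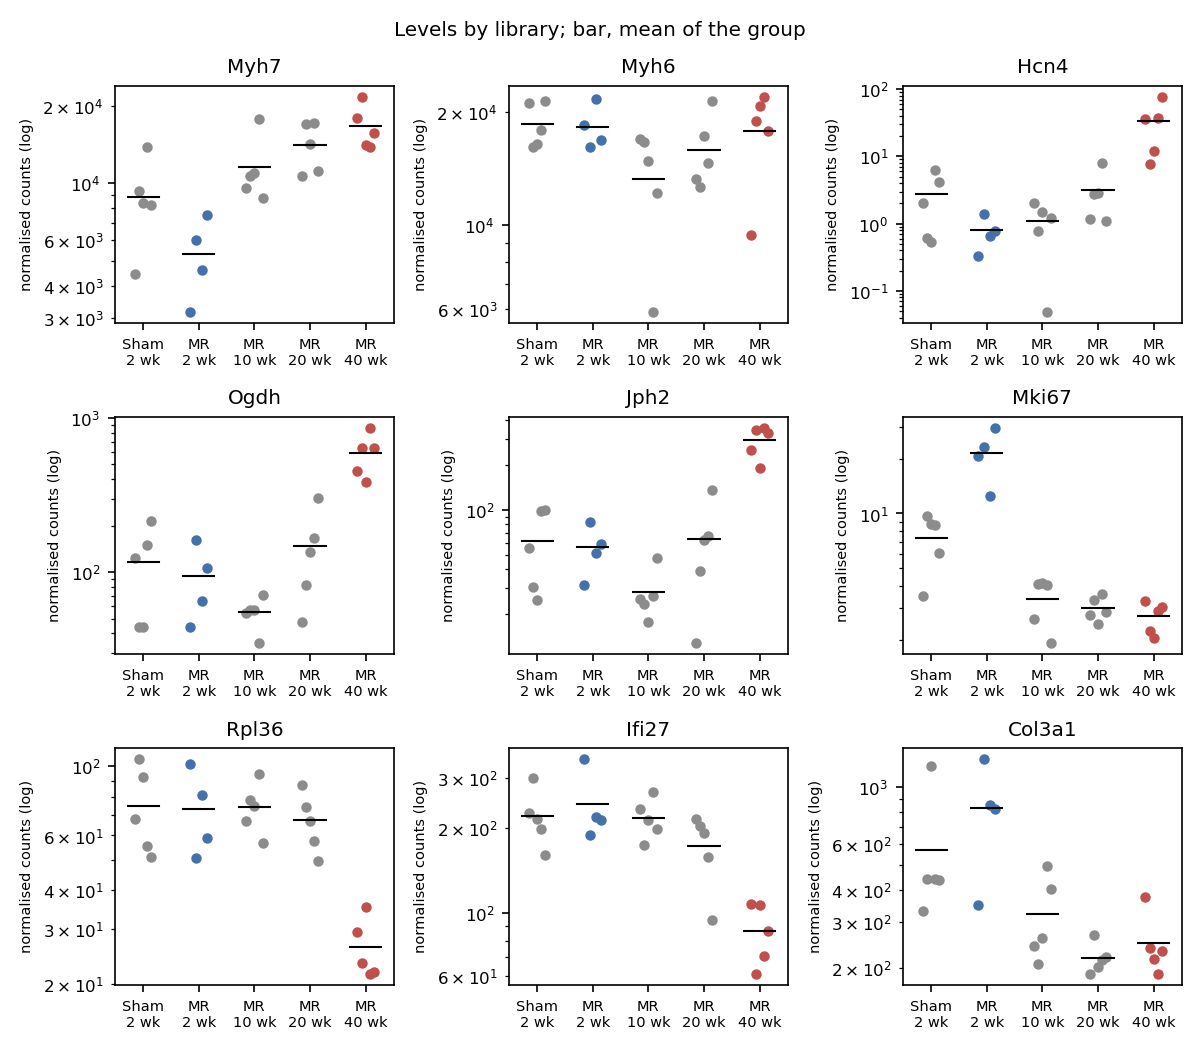
Normalised read counts (log axes) of 9 genes in every library of Sham at 2 weeks and of MR at 2, 10, 20 and 40 weeks, with the group mean as a bar; blue and red mark the compared groups. Hcn4, Ogdh, Jph2 and Rpl36 differed between the 2-week and 40-week MR groups with the means at 10 and 20 weeks nearer to the early than to the late mean, while Mki67 was highest in MR at 2 weeks (12.4 to 29.6) and low at all later times.

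Enzymes of the citric acid cycle and of pyruvate entry mostly rose, and many subunits of the respiratory chain fell. The citric acid cycle oxidises acetyl groups and hands electrons to the respiratory complexes. Its list also holds enzymes of the cytosol, such as Idh1. It shares Sdha, Sdhb, Sdhc and Sdhd with the list of complexes II to V. Ogdh, the first enzyme of the 2-oxoglutarate dehydrogenase complex, was at 44, 162, 64.9 and 106 early and 451, 636, 383, 865 and 638 late (log2 fold change 2.75 ± 0.34, adjusted p = 0.000551). Idh1, cytosolic isocitrate dehydrogenase, was at 11, 12.2, 9.09 and 12.1 early and 24, 27.9, 21.3, 34 and 30.1 late (1.23 ± 0.16). The kinases that switch off pyruvate dehydrogenase rose too, with Pdk1 at 1.67 ± 0.23, Pdk2 at 1 ± 0.17 and Pdk4 at 1.62 ± 0.32. In this list 24 of 36 rose (66.7%) and none fell, with a median of 0.91, or 0.65 without early replicate 1.

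Complex I takes electrons from NADH. Ndufs5, one of its accessory subunits, was at 119, 80.9, 107 and 99.3 early and 55, 54.4, 74.6, 55.5 and 49.1 late (-0.81 ± 0.16, adjusted p = 0.00262), and Ndufb3 went from 209 ± 45.5 to 118 ± 16.6 (-0.80 ± 0.17). Of 34 complex I subunits, 17 fell (50%) and 2 rose, with a median of -0.44. Ndufs1, the large core subunit that carries iron-sulfur clusters, was one of the rises, from 22.5, 164, 58.2 and 114 to 257, 287, 258, 515 and 328 (2.15 ± 0.45). Ndufa10 was the other (0.62 ± 0.22), and its call was lost in 12 alternatives, with 0.41 without early replicate 1.

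Of 42 subunits of complexes II to V, 20 fell and 4 rose, also with a median of -0.44. Without late replicate 2 or 5, or without early replicate 3, 13 fell. Atp5i, a small membrane subunit of ATP synthase, was at 231, 226, 311 and 202 early and 118, 85.8, 159, 109 and 90.2 late (-1.12 ± 0.19). Uqcrb of complex III (-0.71 ± 0.14), Cox7c of complex IV (-0.64 ± 0.18) and Atp5h and Atp5o of ATP synthase (-0.97 ± 0.20 and -0.73 ± 0.18) fell with groups that did not overlap. The rises were Sdha, the catalytic subunit of succinate dehydrogenase (1.38 ± 0.32), Uqcrc2, a core subunit of complex III (1.25 ± 0.39, 0.79 without early replicate 1, and lost in 3 alternatives), Atp5s (0.58 ± 0.15) and Atp5a1, the alpha subunit of ATP synthase (0.86 ± 0.32, and 0.48 without early replicate 1). The call of Atp5a1 was lost in 12 alternatives, every fit without a late library among them, with adjusted p up to 0.106. When a library was left out, 2 to 5 genes of this list rose. Genes encoded in mitochondrial DNA are not listed in these tables. Ckmt2, the mitochondrial creatine kinase, fell from 670 ± 127 to 435 ± 63 (-0.62 ± 0.18, lost in 2 alternatives).

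Fatty acid genes rose in 24 of 49 cases and fell in 5, with a median of 0.61, and 15 rose without late replicate 4. Lpl, the lipase that frees fatty acids at the vessel wall, was at 261, 494, 379 and 453 early and 912, 1398, 1046, 1504 and 1398 late (1.67 ± 0.23). Ucp2, a mitochondrial carrier, went from 58.8, 133, 69.9 and 105 to 307, 211, 385, 301 and 288 (1.74 ± 0.24). Cpt1b, the muscle carnitine palmitoyltransferase that admits fatty acids to mitochondria, was even within groups, at 169, 178, 164 and 175 early and 233, 263, 265, 326 and 256 late (0.64 ± 0.13). The falls were the lipid-binding proteins Fabp5 (-1.41 ± 0.21) and Fabp4 (-1.20 ± 0.22), Acsl4 (-0.75 ± 0.18), Etfb (-0.78 ± 0.21) and Acot13 (-0.48 ± 0.17, lost in 5 fits without 1 library, with adjusted p up to 0.11). Fabp4 is mainly made by capillary endothelium and fat cells.

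Glucose genes rose in 15 of 33 cases, with a median of 0.32, and Pfkfb2, which makes the activator of phosphofructokinase, was the sole fall (-0.84 ± 0.30, -0.45 without early replicate 1, and lost in 5 fits without another library). Without that library 5 genes of the list fell. Hk2, the insulin-responsive hexokinase, was at 5.70, 15, 7.76 and 6.84 early and 45.6, 44.4, 31.5, 57 and 48.4 late (2.30 ± 0.24, adjusted p = 0.000368). Slc16a1, the lactate and pyruvate transporter, rose from 47.9 ± 10.7 to 177 ± 38 (1.86 ± 0.20), and Gys1, muscle glycogen synthase, by 1.14 ± 0.18. Among genes of mitochondrial import, shape and biogenesis 21 of 52 rose and 7 fell, or 4 without late replicate 2 or 5 or early replicate 4. They included Mfn2, a mitofusin that joins mitochondria and tethers them to the sarcoplasmic reticulum (1.27 ± 0.14), and the orphan receptors Esrrg (2.12 ± 0.26) and Esrrb (1.62 ± 0.19), regulators of mitochondrial genes.

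Cytosolic ribosomal protein genes fell almost throughout: 68 of 79 fell (86.1%), none rose, and the median was -0.80. All 79 had a fold change below 0, and all late libraries were below all early ones for 48 of them. Rpl36 was at 102, 50.7, 81 and 58.9 early and 29.3, 23.3, 35.2, 21.5 and 21.8 late (-1.42 ± 0.21, adjusted p = 0.000864). Rps28 went from 23.2 ± 6.13 to 7.39 ± 3.02 (-1.56 ± 0.25), and Eif3k, a subunit of the initiation factor that binds the small ribosomal subunit, from 20.0 ± 7.47 to 6.62 ± 2.79 (-1.46 ± 0.28). Of translation factors 15 of 61 rose (24.6%) and 8 fell (13.1%), against 21.4% and 18.9% of all tested genes, with a median of -0.01. Of these factors 4 fell without late replicate 2 or early replicate 3, and 5 without late replicate 1, 4 or 5. Mitochondrial ribosomal proteins fell in 21 of 69 cases and rose in 7, with a median of -0.13. Without early replicate 3, 13 of them fell and 3 rose, and without late replicate 4 or 5 the rises were 2 and 4. Ribosomal proteins have many processed pseudogenes, and how reads were shared among them is not given in the sources used here.

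Fold changes moved with the length of genes. Tested genes were put into 4 classes of equal size by genomic span, introns included. Of the shortest class (317 to 8735 bases) 11.1% rose and 29.5% fell, and of the longest class (from 50385 bases) 32% rose and 9.92% fell. Of the 79 ribosomal genes 76 were in the shortest class, as were 19 of 34 subunits of complex I and 31 of 42 of complexes II to V, against 3 of 36 citric acid cycle and pyruvate genes. Taken per library over 9953 genes, the median centred log2 level of the longest class minus that of the shortest was 0.11 to 0.56 in MR at 40 weeks, with replicate 3 the lowest. It was -0.10 to 0.04 in MR at 2 weeks, -0.30 to -0.08 at 10 weeks, -0.23 to -0.02 at 20 weeks and -0.20 to -0.01 in Sham. The median span was 56850 bases for the calcium list and 58682 bases for the adrenergic list, both within the longest class. The part of gene length in the ribosomal, respiratory, channel, calcium and adrenergic results was not tested. Within the shortest class the median was -0.79 for ribosomal genes, -0.54 for complex I and -0.53 for complexes II to V. It was -0.20 for all genes of that class, and the 3 citric acid cycle and pyruvate genes in it all rose. In classes 2 to 4, by increasing span, complexes II to V had medians of 0.11 (7 genes), 1.25 (3 genes) and 0.65 (1 gene). Of the 20 falls in complexes II to V, 18 were in the shortest class. Complex I had medians of -0.39 (8 genes), 0.01 (5 genes) and -0.55 (2 genes) in classes 2 to 4, with 4, 0 and 1 falls. All genes of these classes had medians of -0.07, 0.03 and 0.18. Ribosomal genes outside the shortest class also fell.

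**Figure D3:**
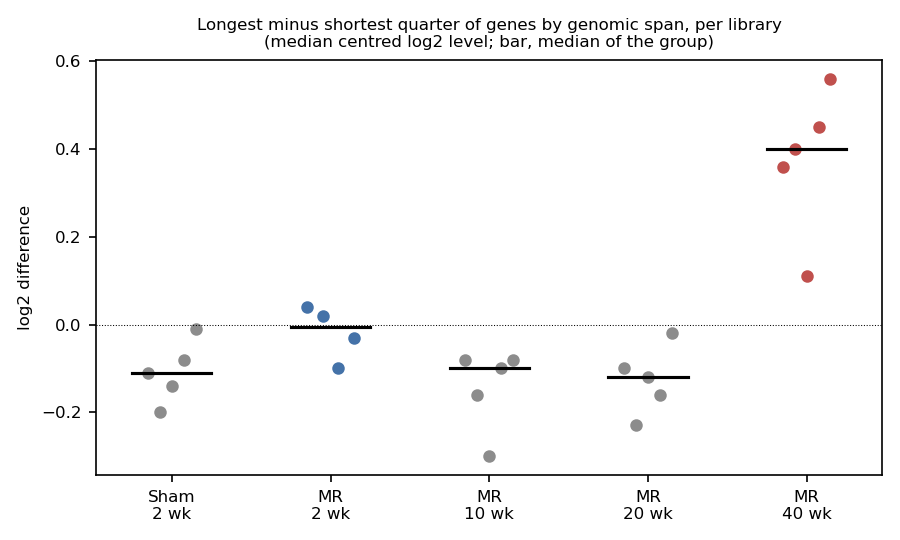
For each library, the median centred log2 level of the class of genes with the longest genomic span minus that of the shortest class, by group, with the group median as a bar. The 5 libraries of MR at 40 weeks sit at 0.11 to 0.56 and all other libraries at -0.30 to 0.04.

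Cell cycle genes were the other set with large falls. Proliferating cells switch on kinesins, spindle proteins and DNA replication factors together, and most such cells in an adult heart are not muscle cells. Mki67, the proliferation antigen, was at 20.7, 23.1, 12.4 and 29.6 early and 3.30, 2.26, 2.06, 2.90 and 3.05 late (-2.55 ± 0.22, adjusted p = 0.000145). Its lowest early library was well above its highest late one. Tpx2, a spindle assembly factor, went from 6.64 ± 1.87 to 0.805 ± 0.141 (-2.05 ± 0.18), Cenpf, a kinetochore protein, from 6.81 ± 2.73 to 0.734 ± 0.220 (-2.12 ± 0.22), and Cdca8, the borealin subunit of the chromosomal passenger complex, from 3.19 ± 0.520 to 0.443 ± 0.156 (-1.54 ± 0.16). Of 38 cell cycle genes 27 fell (71.1%), with a median of -1.07, and 24 to 27 fell whichever library was left out. Ccnd2, cyclin D2, which drives entry into the cycle and is also made by growing cells, was the only rise, from 1.63, 7.86, 1.28 and 4.44 to 46.6, 44.3, 14.6, 48.3 and 43.8 (3.18 ± 0.42). A further 8 members of the list are in the 2-week table and not in the 40-week table, which lists only genes with a read in every one of its libraries. They include Kif11, at 1.10 to 4.38 in MR and 0.590 to 1.33 in Sham, Bub1b (1.45 to 3.15 against 0.236 to 1.21) and Birc5 (1.85 to 2.61 against 0.295 to 1.48), on that table's own scale.

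The level of Mki67 in Sham was 3.51 to 9.66, between the early and the late MR groups, and its means at 10 and 20 weeks were 3.37 and 3. Over 38 cell cycle genes the median difference from MR at 2 weeks was -0.71 in Sham, -0.99 at 10 weeks, -1.21 at 20 weeks and -1.06 at 40 weeks. MR at 2 weeks was the high group, and the median at 10 weeks was close to that at 40 weeks. These differences share the MR libraries at 2 weeks and carry no test.

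Promoters of the cell cycle genes are shown because many such genes are known to carry repeated CCAAT boxes, bound by the factor NF-Y, and the CHR element TTTGAA, bound by the DREAM complex. The 250 bases before the start of each gene were taken from RefSeq (build GRCr8), and both strands were searched for CCAAT and TTTGAA. Capitals mark the matches, including ATTGG, which is CCAAT on the other strand, and TTTGAATTGG holds a TTTGAA and an ATTGG that share a base.
Mki67, chr1:199952594-199952843, minus strand: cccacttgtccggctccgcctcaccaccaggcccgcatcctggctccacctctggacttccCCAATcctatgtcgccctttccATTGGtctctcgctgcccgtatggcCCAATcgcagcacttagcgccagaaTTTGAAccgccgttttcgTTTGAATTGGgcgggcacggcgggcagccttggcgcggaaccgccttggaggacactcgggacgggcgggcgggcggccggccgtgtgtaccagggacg
Cenpf, chr13:103760887-103761136, minus strand: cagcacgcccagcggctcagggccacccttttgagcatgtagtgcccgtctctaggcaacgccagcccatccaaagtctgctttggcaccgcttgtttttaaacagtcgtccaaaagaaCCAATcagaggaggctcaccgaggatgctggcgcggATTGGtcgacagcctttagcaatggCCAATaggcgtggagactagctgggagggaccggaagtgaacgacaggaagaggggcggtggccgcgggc
Cdca8, chr5:142483200-142483449, minus strand: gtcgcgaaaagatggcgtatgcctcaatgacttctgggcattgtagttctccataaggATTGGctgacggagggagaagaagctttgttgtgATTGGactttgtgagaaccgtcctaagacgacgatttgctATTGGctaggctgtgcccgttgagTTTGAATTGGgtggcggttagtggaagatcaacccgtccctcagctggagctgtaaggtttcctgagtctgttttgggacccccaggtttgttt
Mki67 held 4 CCAAT and 2 TTTGAA matches, Cenpf 3 CCAAT matches, and Cdca8 4 CCAAT matches and 1 TTTGAA match. Of the 27 fallen cell cycle genes 20 had a promoter in the table, and 18 of these (90%) held CCAAT against 35.8% of 8223 promoters of tested genes. TTTGAA was in 9 (45%) against 9.36%. The list was made of cell cycle genes, many of which are known to carry these elements, so high shares follow from how it was chosen. Members that did not fall were not counted, so the shares describe the list and not the fall. A match is a description of letters in this window and not evidence of binding.

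Several fibroblast matrix genes were lower late in MR. Sparc, a secreted protein that binds collagen, was at 1290, 1560, 1407 and 1684 early and 760, 525, 632, 545 and 730 late (-1.23 ± 0.18, adjusted p = 0.000834). Postn, the matricellular protein of activated fibroblasts, was at 9.91, 44.2, 15.4 and 16.2 early and 7.77, 1.10, 2.58, 1.99 and 3.35 late (-2.32 ± 0.43). Col3a1 was at 350, 1285, 849 and 823 early and 376, 239, 216, 189 and 233 late (-1.62 ± 0.32) and Col1a1 went from 314 ± 180 to 107 ± 23.1 (-1.34 ± 0.37). Both collagens overlapped between the groups, since early replicate 1 was low and late replicate 1 high. Timp1, an inhibitor of matrix proteases, fell by 1.40 ± 0.30. Of 44 fibroblast matrix genes 20 fell and 3 rose, with a median of -0.47, and 1 to 4 rose when a library was left out. The rises of this list were Ogn, the proteoglycan osteoglycin (1.27 ± 0.28), P4ha1, a collagen prolyl hydroxylase (0.55 ± 0.17, lost in 3 alternatives), and Thbs1, thrombospondin (0.69 ± 0.24). Thbs1 was lost in 12 alternatives and stood at 0.38 without early replicate 4. The median difference of this list from MR at 2 weeks was -0.30 in Sham, -0.42 at 10 weeks, -0.69 at 20 weeks and -0.48 at 40 weeks. The other matrix lists moved both ways, in shares nearer to those of all tested genes (21.4% rose and 18.9% fell). Of 16 basement membrane genes 4 rose (25%) and 4 fell (25%). Of 24 matrix proteases and inhibitors 5 rose (20.8%) and 3 fell (12.5%), with a median of 0.11. In the TGF-beta and BMP list 8 of 32 rose (25%) and 5 fell (15.6%, or 3 genes without late replicate 2), also near the shares of all genes. They included Tgfb1 (-0.83 ± 0.14), the target gene Id3 (-1.02 ± 0.15), the co-receptor Tgfbr3 (1.56 ± 0.18) and the inhibitor Smad7 (0.82 ± 0.14).

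Markers of the other cells of the wall were read beside these results, since in bulk tissue fewer cells of a type and less RNA per cell cannot be told apart. Of all tested genes 21.4% rose and 18.9% fell. Macrophage markers fell in 16 of 27 cases (59.3%), and none rose. Their summed level was 288 to 438 early and 153 to 258 late, with Sham at 207 to 424. Lgals3 went from 23.9, 22.3, 22.3 and 16.8 to 11, 9.76, 14.8, 9.96 and 8.81 (-0.92 ± 0.16), and the resident macrophage genes Lyve1 and Mrc1 fell by 1 ± 0.18 and 1.16 ± 0.21. Endothelial markers fell in 10 of 22 cases, among them Emcn (-0.85 ± 0.17) and Egfl7 (-1.14 ± 0.28), and Cdh5, cadherin of endothelial junctions, rose (0.84 ± 0.31, lost in 14 alternatives, and 0.45 without early replicate 1). Their sum was 2239 to 3276 early and 1840 to 2504 late. Fibroblast markers gave 2 rises (11.8%) and 5 falls (29.4%) of 17. Vim, the intermediate filament of mesenchymal cells, was at 385 ± 30 and 184 ± 44.9 and Gsn, gelsolin, at 587 ± 153 and 1212 ± 161. Cma1, a mast cell protease, fell from 3.99 ± 2.54 to 0.874 ± 0.121, as did 1 other of 5 mast cell markers. None of 10 lymphocyte and none of 10 erythroid or platelet markers passed, though 0 to 5 of the latter fell when a library was left out. Of neutrophil markers 1 of 3 fell, and of mesothelial and epicardial markers 2 of 8 (25%, and 1 to 5 genes when a library was left out). Smooth muscle and pericyte markers summed to 1289 to 1677 early and 1896 to 2283 late, with 5 rises (27.8%) and 2 falls (11.1%) of 18. Schwann and neuronal markers summed to 98.7 to 167 early and 205 to 297 late, with 2 rises (18.2%) of 11. Adipocyte markers summed to 884 to 981 early and 1197 to 1740 late, with 1 rise (16.7%) and 2 falls (33.3%) of 6. These 3 sums did not overlap between the groups, but a sum mostly follows its highest members. The median log2 fold change of members was -0.15 for smooth muscle and pericyte, 0.09 for Schwann and neuronal and -0.26 for adipocyte markers. The adipocyte rise was Lpl, also counted among the fatty acid genes, and the smooth muscle list holds the Z-disc genes Des and Synpo2. The summed level of 17 cardiomyocyte markers was 54304 to 71754 early and 66524 to 86312 late. Of them 5 rose (29.4%), or 3 without late replicate 2, and 1 fell (5.88%). The shares that rose in the smooth muscle, Schwann and cardiomyocyte lists were near that of all tested genes. The adipocyte markers Adipoq and Plin1 and the fast skeletal myosins Myh1, Myh2 and Myh4 are not in the joined tables. The part of cell makeup in the matrix and immune results was not tested.

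Interferon-responsive genes and the immunoproteasome were lower. Ifi27, an interferon-induced membrane protein, was at 349, 188, 219 and 212 early and 107, 60.9, 106, 70.7 and 86.7 late (-1.47 ± 0.22, adjusted p = 0.000834). Bst2, tetherin, was at 163, 138, 136 and 133 early and 84, 48.8, 75.7, 47.6 and 79.3 late (-1.11 ± 0.19). In the interferon list 22 of 41 fell (53.7%) and 1 rose, with a median of -0.62, and 14 fell without late replicate 4. The inducible catalytic subunits that replace those of the standard proteasome for antigen processing fell together: Psmb8 from 26.6 ± 0.611 to 13.9 ± 3.02, Psmb9 from 20.1 ± 3.53 to 10.1 ± 1.73, and Psmb10 from 23.1 ± 6.08 to 10.5 ± 2.35. Psme2, a subunit of the interferon-induced activator, fell by 1.46 ± 0.21. Of 33 antigen presentation genes, which share Psmb8 and Psmb9 with the interferon list, 12 fell and none rose. RT1-CE14, a class I gene of a family with close copies, went from 20.9 ± 5.90 to 7.55 ± 2.67. Interferon genes at 20 weeks were at a median of -0.51 from MR at 2 weeks, near the -0.54 of 40 weeks over the same 41 genes, and Sham was at -0.18.

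Interferon-stimulated promoters are known to carry an element of repeated GAAA that IRF factors bind, searched here as GAAA, any 2 bases, GAAA. The 2 promoters shown are those of the members with the smallest p that are not proteasome subunits. They were read in the same way, capitals mark matches on either strand, and the 2 matches of Bst2 overlap.
Ifi27, chr6:128355062-128355311, plus strand: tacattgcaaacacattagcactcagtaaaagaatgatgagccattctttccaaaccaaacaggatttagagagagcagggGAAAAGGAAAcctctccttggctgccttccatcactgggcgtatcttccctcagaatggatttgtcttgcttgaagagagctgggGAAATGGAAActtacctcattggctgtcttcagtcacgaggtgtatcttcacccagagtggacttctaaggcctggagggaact
Bst2, chr16:18254968-18255217, minus strand: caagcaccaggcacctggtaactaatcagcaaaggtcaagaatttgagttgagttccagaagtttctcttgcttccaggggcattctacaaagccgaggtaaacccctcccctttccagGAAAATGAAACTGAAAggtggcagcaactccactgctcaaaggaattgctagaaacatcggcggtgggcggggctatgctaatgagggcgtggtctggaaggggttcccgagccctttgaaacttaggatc
Of 18 fallen interferon genes with a promoter in the table, 12 (66.7%) held the element, against 2.54% of the promoters of tested genes. The list was made of genes known to respond to interferon, so a high share follows from how it was chosen. Members that did not fall were not counted, so the share describes the list and not the fall. A match is not evidence of binding.

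Genes of hypertrophic signalling rose in 27 of 40 cases (67.5%) and none fell, with a median of 0.83. Ppp3cb, a catalytic subunit of the phosphatase calcineurin, was at 13.9, 13.7, 10.8 and 12.2 early and 28.6, 33, 28.3, 37.9 and 34.9 late (1.29 ± 0.13, adjusted p = 0.000368). The cardiac transcription factors Gata4 (16.2, 34.6, 20.9 and 34.7 early, and 76.6, 72.7, 60, 102 and 84.1 late) and Tbx5 (1.81 ± 0.383 and 7.33 ± 2.15) rose by 1.58 ± 0.23 and 1.54 ± 0.20. The median of the list was 0.00 in Sham, -0.23 at 10 weeks and -0.03 at 20 weeks relative to MR at 2 weeks, and 0.81 at 40 weeks. The median genomic span of its members was 71158 bases, within the longest class, and the part of gene length in this count was not tested.

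Muscle atrophy and autophagy genes rose in 23 of 44 cases and fell in 1. Fbxo32, the ubiquitin ligase atrogin-1, was at 0.814, 2.37, 0.511 and 1.38 early and 13.6, 11.2, 5.88, 15.9 and 17.3 late (2.59 ± 0.30, adjusted p = 0.000441). Foxo3, the factor that switches on Fbxo32, went from 6.02 ± 1.19 to 17.8 ± 4.30 (1.41 ± 0.19) and Atg13, of the complex that starts autophagy, from 13.2 ± 2.15 to 34.5 ± 5.12 (1.32 ± 0.15). Of 16 dystrophin complex genes, which link the cytoskeleton to the matrix, 9 rose and 2 fell. Sntb1, a syntrophin, was at 1.39, 4.75, 3.63 and 2.69 early and 24.3, 31.2, 12.4, 28.2 and 37.5 late (2.74 ± 0.31), and Dmd, dystrophin itself, rose by 1.09 ± 0.23. Among intercalated disc genes 10 of 19 rose and 2 fell, and Cdh2, the cadherin of the disc, went from 86.5 ± 25.1 to 197 ± 33.8 (1.21 ± 0.21).

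Hormone-responsive, clock and p53 genes moved in both directions, as did tested genes as a whole, of which 21.4% rose and 18.9% fell. The shares were 31.8% and 13.6% for glucocorticoid-responsive genes. They were 23.5% and 17.6% for the circadian list and 20.8% and 20.8% for the p53 list, close to those of all genes. Zbtb16, a strongly glucocorticoid-induced repressor, was at 5.03, 3.43, 7.15 and 3.34 early and 18.2, 35, 22.3, 20.6 and 24.3 late (2.14 ± 0.22), and Nr3c2, the mineralocorticoid receptor, rose by 0.94 ± 0.15, in a list where 7 of 22 rose and 3 fell. In the circadian list 4 of 17 rose and 3 fell, and 2 to 4 rose and 1 to 4 fell when a library was left out. Per2, a repressor of the clock, was at 237, 52.1, 68.4 and 31.3 early and 27.7, 29.5, 38, 32.1 and 30.4 late (-1.17 ± 0.42, adjusted p = 0.0429). Early replicate 1 was far above the rest. Without it the value was -0.60 with an adjusted p of 0.039, and without any 1 late library the adjusted p was 0.051 to 0.0784. Per3 (-1.51 ± 0.40) and Dbp (-1.06 ± 0.39, lost in 9 alternatives with adjusted p up to 0.122) also overlapped, and Arntl and Cry1, of the activating and the repressing arm, rose by 1.03 ± 0.36 (0.64 without early replicate 1, and lost in 11 alternatives) and 0.85 ± 0.19. The hour of tissue collection is not in the labels. Bax and Bbc3, death effectors induced by p53, fell by 1.35 ± 0.20 and 1.11 ± 0.19 while Tp53inp2 rose by 1.21 ± 0.19, and 5 of 24 genes of that list rose and 5 fell, with 3 rises without late replicate 2 or 4.

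Chromatin, zinc finger and splicing genes gave shares closer to those of all genes, and their counts moved with single libraries. Chromatin regulators rose in 16.7% and fell in 16.7% of 66 cases, zinc finger genes rose in 10.8% and fell in 18.9% of 148. Leaving out a library gave 7 to 14 rises and 7 to 11 falls for chromatin genes, and 8 to 17 rises and 15 to 32 falls for zinc finger genes. Splicing factors fell in 30.9% of 68 and rose in 14.7%, with 13 falls without late replicate 2. Heat shock and chaperone genes rose in 35.4% of 79 and fell in 2.53%, which is 2 genes, or 0 to 5 when a library was left out.

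**Figure D4:**
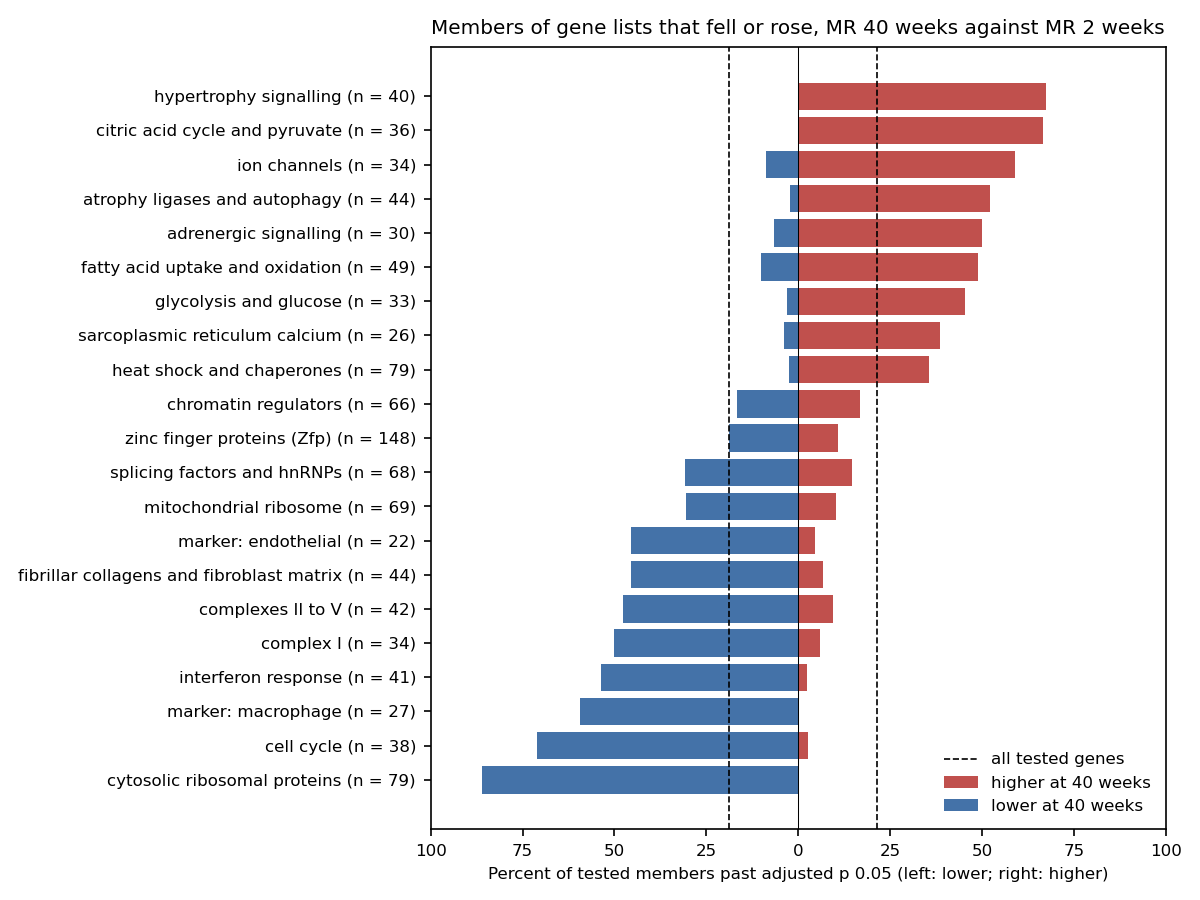
For 21 gene lists, the percent of tested members that rose (red, right) or fell (blue, left) at an adjusted p under 0.05, with the number tested in brackets; dashed lines mark the shares over all tested genes, 21.4% and 18.9%. Ribosomal (86.1% fell), cell cycle (71.1% fell), hypertrophy (67.5% rose) and citric acid cycle genes (66.7% rose) lie at the ends.

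Levels at 10 and 20 weeks were set beside the end points. Of 646 genes at least 2-fold higher at 40 weeks and listed at every time, all 10 libraries of MR at 10 and 20 weeks lay below the lowest 40-week library for 412 (63.8%). The 10-week mean was nearer to the 40-week than to the 2-week mean for 9 of them (1.39%) and the 20-week mean for 122 (18.9%). Of 301 genes at least 2-fold lower, all 10 libraries lay above the highest 40-week library for 80 (26.6%), and the means at 10 and 20 weeks were nearer to 40 weeks for 75 (24.9%) and 142 (47.2%). These genes were chosen for their distance between 2 and 40 weeks, so the shares describe them and carry no test. By list, ribosomal genes were at medians of 0.00 and -0.09 at 10 and 20 weeks and -0.81 at 40 weeks, and complex I at 0.07, 0.21 and -0.44. The citric acid cycle list was at 0.05, 0.47 and 0.85, and ion channels at 0.00, 0.18 and 0.74.

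**Figure D5:**
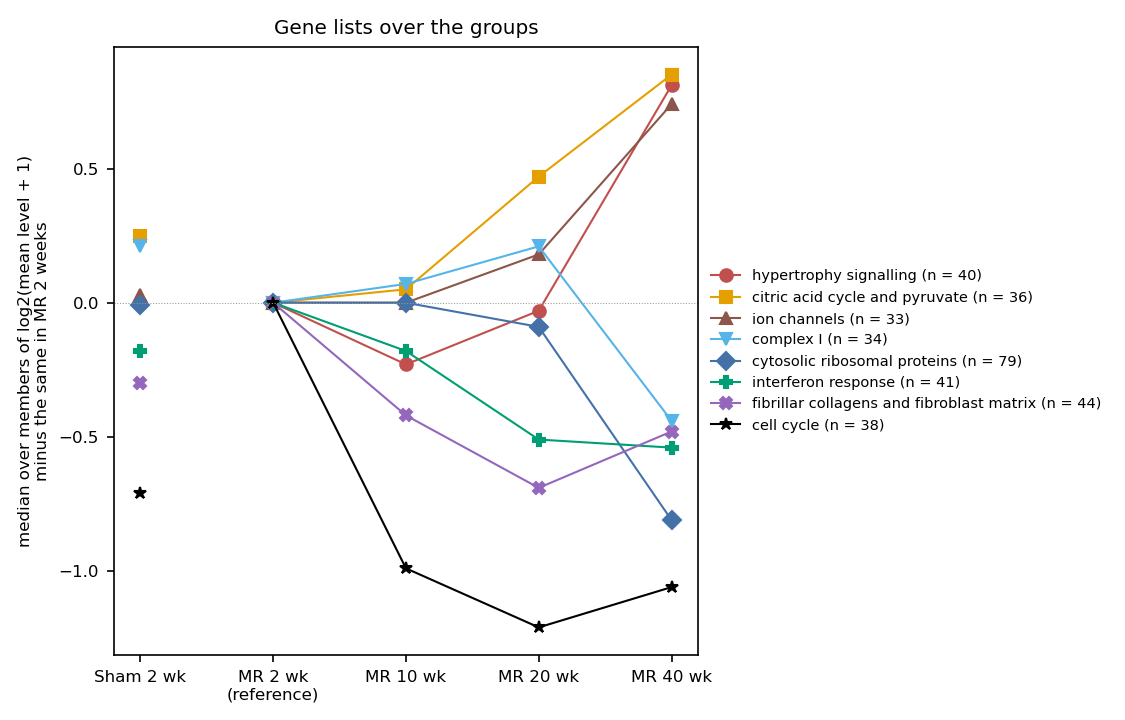
Median over list members of log2(mean level + 1) minus the same in MR at 2 weeks, for 8 gene lists in Sham at 2 weeks (points on the left) and MR at 2, 10, 20 and 40 weeks; MR at 2 weeks is 0 by construction. Cell cycle genes were lower in every other group (-0.71 to -1.21), while ribosomal genes (-0.81) and hypertrophy genes (0.81) departed from 0 at 40 weeks.

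Some genes could not be tested because they are listed at one end point only. Besides 10219 shared symbols, 214 are listed at 2 weeks and not at 40 weeks, and 220 at 40 weeks and not at 2 weeks. Among the latter are Adcy1, an adenylyl cyclase (2.59 to 17 in MR at 40 weeks, 0.255 to 0.737 in Sham), Adra2c, an inhibitory adrenergic receptor (1.58 to 12.4 against 0.0437 to 0.692), Tgfa, a ligand of the epidermal growth factor receptor (1.23 to 9.62 against 0.295 to 0.561), and Camk2b, a calcium-dependent kinase (3.83 to 8.15 against 0.437 to 1.28). Every listed gene has a read in every library of its table, but the rule of listing is not stated in the sources used here. No fold change is given for these genes.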

How the data were processed

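RNA from the myocardium of rats was sequenced on an Illumina instrument after extraction with miRNeasy columns, per the labels' protocols. Partek and the rat build rn6 are named per the submitters' processing notes, and the aligner, annotation, counting rule, strand setting and scaling are not stated in the labels or file headers. The authors deposited a table per MR time, each with the same 5 Sham libraries, in a signal unit: normalised gene counts, 1 factor per library. Between 97.3% and 97.7% of values were within 0.1 read of a whole read once that factor was undone, and reads on listed genes numbered 8.18 to 10.9 M in the MR libraries compared. Every listed gene has a read in every library of its table.

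The tables of 2 and 40 weeks (10433 and 10439 genes) were joined on the symbol (10219 shared), and the 9 MR and 5 Sham libraries were rescaled by the median of their ratios to the gene-wise geometric mean. MR libraries of 10 and 20 weeks were put on the same reference for levels, and entered 1 alternative fit of all 24 libraries. MR at 40 weeks (n = 5) was tested against MR at 2 weeks (n = 4) with limma 3.58.1 in R 4.3.3 on log2(value + 1), with moderated variances that follow the mean level, two-sided, over the 10037 genes with a mean of at least 1, and Benjamini-Hochberg adjustment. The test was tried on simulated data with 200 changed genes. Alternatives used edgeR 4.0.16 and DESeq2 1.42.0 on recovered reads, other scalings, pseudocounts, filters, fits with more libraries, and each library left out. Replicates are numbered in accession order. Symbols were matched as deposited.

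Named genes are the 12 largest rises and falls without overlap at or above the median level, the 6 highest-level rises and falls, a panel of 18 cardiac genes, up to 4 members with the smallest p of each list described, and genes said to be added after their values were seen. The members, gene lists and motifs were chosen with earlier results of these data known. Promoters come from RefSeq, build GRCr8, and gene symbols matched 8223 of 10037 tested genes. Some genes of these lists are counted but not reported here by name.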

Additional observations from a re-analysis of the deposited data

Results flagged for a closer look

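In groups of 4 or 5 libraries, 22 of 312 groups of values examined held 1 library farther from the rest than Dixon's 95% limit allows, where chance gives about 1 in 20. Of these, 8 concerned replicate 1 of MR at 2 weeks: Tmsb10 (315), Slfn13 (44.2), Adamts10 (131), Ngdn (97.2), Bst2 (163), Egfl7 (143), Kcnd3 (93.8) and Pfkfb2 (98.9) were each above the other early libraries by more than that limit. Replicate 3 of MR at 40 weeks was low for Ccnd2 (14.6, others 43.8 to 48.3) and high for Pdk4 (95), Ndufs5 (74.6) and Uqcrb (110), and its score on the second principal component was -6.87. Replicate 1 of MR at 40 weeks was high for Nppa (1950), Col1a1 (147) and Col3a1 (376), and replicate 4 for Ndufs1 (515) and Sdha (726). In MR at 2 weeks, replicate 4 was high for Nppa (1145) and low for Thbs1 (13.7), replicate 2 was high for Synpo2 (34.7), and replicate 3 was high for Myl7 (2.5).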

How the results depend on the processing

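The number of genes past an adjusted p of 0.05 was 4053, and 3046 to 4136 when a library was left out. With a mean of at least 10 it was 2532 of 5562 tested (1048 lower), since fewer genes were tested. The 2-fold count of 956 became 444 with a pseudocount of 5 and 593 with a mean of at least 10, and 1438 with edgeR and 1481 with DESeq2 on recovered reads. Scaling set the split of calls: 1512 higher and 2733 lower on the deposited scale, 1741 and 2244 with the tables joined through Sham, and 1847 and 2265 with upper-quartile scaling, against 2151 and 1902. Of 147 singly examined genes that passed, 128 passed under every alternative that tested them and none that passed changed sign. Genes with a mean under 10 were not tested in the fit with that limit. Genes that did not pass changed sign in 9 cases, and in 1 case such a gene passed under an alternative. Nppb was at 0.04 and 0.03 without replicate 2 or 3 of MR at 40 weeks and 0.17 without replicate 4 of MR at 2 weeks, and Myh6 at 0.12 without replicate 1 of MR at 40 weeks. Acta1 was at -0.02 on the deposited scale, -0.16 with library weights, -0.10 without replicate 2 of MR at 40 weeks, and -0.06 and -0.10 without replicates 1 and 3 of MR at 2 weeks. Over all fits without 1 library, Nppb ran from -0.22 to 0.17, Myh6 from -0.18 to 0.12 and Acta1 from -0.10 to 0.50. The cause was not tested. No paired analysis was possible because the labels of the groups compared share no replicate number. Genes missing from a table could not be tested.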
